A study of Drosophila melanogaster with 24 samples.

Results

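The small heat shock proteins are low-molecular-weight chaperones that share an alpha-crystallin domain. They assemble into oligomers, bind unfolding proteins without using ATP and hold them until ATP-dependent chaperones such as Hsp70 can refold them or hand them to degradation. In flies most of their genes respond to heat through the heat shock factor Hsf, several also respond to the moulting hormone ecdysone, and Hsp22, the member that resides in the mitochondrial matrix, is known as a marker of fly ageing.

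The 7 genes described are Hsp22, Hsp23, Hsp26, Hsp27, l(2)efl, Hsp67Ba and Hsp67Bc, taken by their exact gene names from 17637 genes listed at both ages. Their mRNA was measured in heads of old (55 days) and young (5 days) w[1118] females, the control genotype of the study, whose white gene for eye colour is mutant. Flies of both ages were mated and kept in 12 h light and 12 h dark. Their heads were collected at 0, 4, 8, 12, 16 and 20 h after the lights came on, written as zeitgeber times ZT0 to ZT20, and each age and time gave 2 libraries, 24 in all. Whole heads hold neurons, photoreceptors, glia, fat body and muscle, so fewer cells of a type and less RNA per cell cannot be told apart. Levels are FPKM, the number of sequenced fragments divided by transcript length and by library size, and can be compared between genes.

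All members except l(2)efl lie in the 67B cluster of chromosome arm 3L, within 14.2 kb on the BDGP6 (dm6) assembly. The order along the arm is Hsp67Bc (FBgn0001229, 3L:9371511-9372497, minus strand), Hsp22 (FBgn0001223, 3L:9372931-9374964, plus), Hsp26 (FBgn0001225, 3L:9376418-9377427, minus), Hsp67Ba (FBgn0001227, 3L:9377802-9379534, minus), Hsp23 (FBgn0001224, 3L:9381882-9382765, plus) and Hsp27 (FBgn0001226, 3L:9384063-9385694, plus). Hsp23, Hsp26, Hsp27, Hsp67Ba and Hsp67Bc are each annotated as 1 exon block. Hsp22 lies wholly inside the span of Hsp67Bb (named CG4456 in the current annotation) on the same strand, so the counting could divide fragments between them. Hsp67Bb itself averaged 0.310 ± 0.254 FPKM in old and 0.0284 ± 0.0442 FPKM in young flies (SD, n = 12 each). Hsp67Ba shares 1375 bp with the antisense RNA CR43481, Hsp27 shares 49 bp with the pseudogene CR43483, and l(2)efl (FBgn0011296, arm 2R) lies inside St3 on the opposite strand. The library kit keeps strand, but the sources used here do not say whether the counting used it, so reads of a gene and its antisense partner may have been mixed.

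Several features of the libraries bear on the values. FPKM values of some genes stepped in whole fragments once each library was given its relative depth, and all 24 values of Hsp23, Hsp26, Hsp27 and Hsp67Bc came out whole within 0.05. Libraries of old flies had median-ratio scale factors that were on average 0.22 higher on the log2 scale than those of young flies, so the deposited values put most genes slightly higher in old flies. Some fits left out the second ZT16 library of each age. Both were the shallowest of their age, at 0.685 (old) and 0.665 (young) of the deepest library, though the second old ZT20 library was close, at 0.712. The young one had the highest summed ovary marker level of any library (3.99 FPKM, against 1.87 FPKM or less in the other young libraries). The old one was little above the other old libraries in this, at 1.29 FPKM against 1.25 FPKM or less.

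Hsp22, Hsp26 and l(2)efl were higher in old flies, Hsp67Ba and Hsp67Bc were lower, and Hsp23 did not pass the test. The comparison asks which genes differ with age when all 12 libraries of an age are taken as its replicates. It used limma on log2(FPKM + 1) with Benjamini-Hochberg adjustment over the 9809 genes with a mean above 1 FPKM at either age, and genes with an adjusted p of at most 0.01 were called. Of all genes tested, 43.5% were called higher and 10.8% lower in old flies. Of the 7 members, 6 passed the filter on low values, and 3 of them were called higher and 2 lower. The median log2 fold change of those 6 was 0.52, beside 0.22 over all genes tested.

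Hsp22, the mitochondrial member, had 81.7, 202 and 476 FPKM as its lowest, median and highest level in old flies, against 8.28, 11.6 and 17.3 FPKM in young flies. All 12 old libraries were above all 12 young ones, as they were for 11.7% of the genes tested. The mean was 240 ± 149 FPKM in old and 12.0 ± 3.17 FPKM in young flies (SD, n = 12 each), 20.1-fold higher in old flies. Its log2 fold change, 3.98 ± 0.28 (SE, adjusted p = 9.29e-12 by limma), was the rank 3 highest of 9809. It ranged from 3.87 to 4.10 when single libraries were left out or all first or all second libraries were, and was 3.77 after scaling each library by its median ratio, with which 20.5% of the genes tested were called higher and 20.8% lower in old flies.

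Hsp26, a cytosolic member that is also expressed in the germ line, ranged from 3.95 to 14.3 FPKM in old flies with a median of 7.25 FPKM, and from 1.62 to 3.19 FPKM in young flies with a median of 2.06 FPKM. Again no old library overlapped with a young one. The means were 8.25 ± 3.38 FPKM in old and 2.13 ± 0.485 FPKM in young flies (SD, n = 12 each), a log2 fold change of 1.49 ± 0.16 (SE, adjusted p = 1.57e-08 by limma). Behind these levels were 1520 fragments over the 12 old libraries, 51 to 236 in each, and 387 over the 12 young libraries, 23 to 49 in each.

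l(2)efl, the gene outside the cluster whose protein resembles the vertebrate alpha-B crystallin, ranged from 88.5 to 202 FPKM in old flies with a median of 160 FPKM, and from 67.2 to 135 FPKM in young flies with a median of 103 FPKM. The ranges overlapped, with 7 of 12 old libraries above every young one. Its log2 fold change was 0.60 ± 0.15 (SE, adjusted p = 0.000903 by limma), and after scaling it was 0.38 and no longer passed (adjusted p = 0.0288). It also missed the threshold in the second libraries alone (0.52, adjusted p = 0.0752) and in the first libraries alone (0.69, adjusted p = 0.0104). St3, the gene that surrounds it on the other strand, averaged 60.6 ± 11.9 FPKM in old and 35.7 ± 7.48 FPKM in young flies, and its part in the l(2)efl values was not tested.

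Hsp67Bc, an interaction partner of the co-chaperone starvin in selective autophagy, had a lowest, median and highest level of 0.818, 1.23 and 2.50 FPKM in old flies, against 2.53, 3.05 and 4.38 FPKM in young flies. All 12 old libraries were below all 12 young ones, as for 2.42% of the genes tested. This gave a log2 fold change of -0.80 ± 0.098 (SE, adjusted p = 1.39e-07 by limma), from 262 fragments over the old and 613 over the young libraries. Scaling made it larger in size, at -0.96.

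Hsp67Ba ranged from 1.20 to 3.94 FPKM in old flies with a median of 2.47 FPKM, and from 2.33 to 5.76 FPKM in young flies with a median of 4.29 FPKM. The ranges overlapped, with 6 of 12 old libraries below every young one. The log2 fold change was -0.51 ± 0.14 (SE, adjusted p = 0.00237 by limma) and -0.68 after scaling. It did not pass in the second libraries alone (-0.60, adjusted p = 0.0314) or in the first libraries alone (-0.43, adjusted p = 0.0785). The antisense RNA CR43481 was also lower, at 0.340 ± 0.116 FPKM in old and 0.655 ± 0.328 FPKM in young flies, and its part in the Hsp67Ba values was not tested.

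Hsp23, a cytosolic member, ranged from 3.47 to 11.1 FPKM in old flies with a median of 5.19 FPKM, and from 1.96 to 9.65 FPKM in young flies with a median of 3.37 FPKM. The highest value at each age came from the second ZT16 library, and only 1 old library exceeded every young one. Its log2 fold change of 0.44 ± 0.18 (SE) missed the threshold (adjusted p = 0.0361 by limma). Without both second ZT16 libraries it was 0.46 and passed (adjusted p = 0.00530), as it did without the young one of them alone (0.55, adjusted p = 0.00380), whereas after scaling it was 0.26 and did not (adjusted p = 0.252).

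Hsp27, a nuclear member, was below the filter, at 0.403 ± 0.109 FPKM in old and 0.114 ± 0.122 FPKM in young flies (SD, n = 12 each). These levels stood for 97 fragments over the 12 old libraries, 5 to 11 in each, and 28 over the 12 young libraries, 0 to 8 in each. The 12 old libraries all had fragments of Hsp27, while 4 of 12 young libraries had none. A fit with no filter on low values, over 15737 genes of which 27.9% were called higher in old flies, gave Hsp27 a log2 fold change of 0.34 (adjusted p = 1.2e-05 by limma), which the pseudocount shrinks at such low levels.

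**Figure D1:**
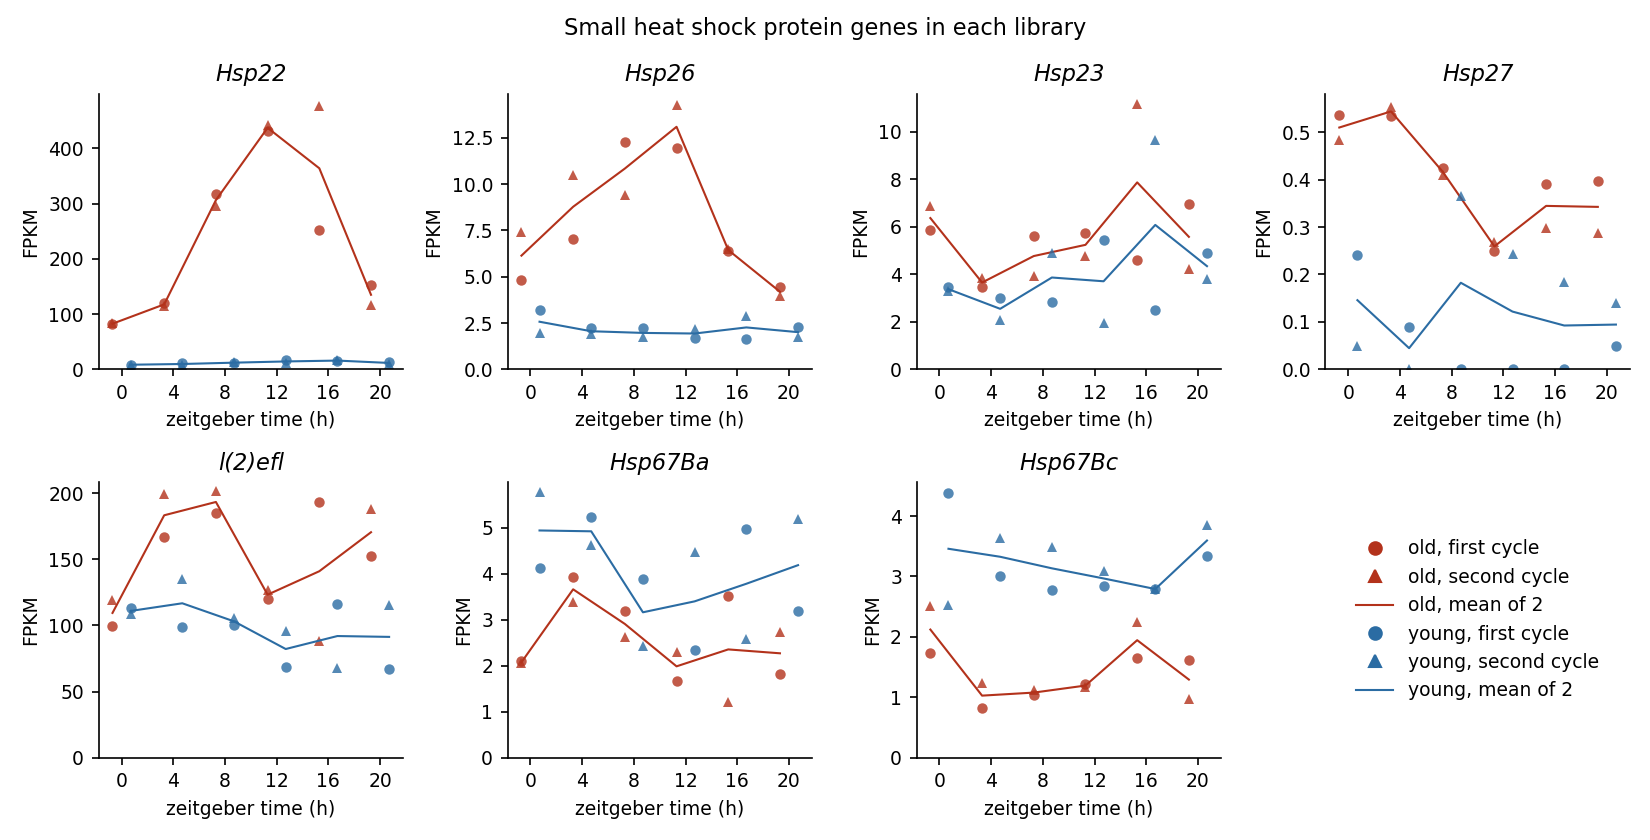
FPKM of the 7 small heat shock protein genes in each library (vertical axis, linear from 0, with a scale for each gene) against zeitgeber time in hours. Old flies are in red and to the left of young flies in blue, circles and triangles are the first and second library of a time, and lines join the means of 2 libraries. Hsp22 in old flies runs between 81.7 and 476 FPKM while young flies stay at 17.3 FPKM or less, and Hsp67Bc in old flies stays below every young library.

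The 4 other fly genes with an alpha-crystallin domain did not move as a block either. CG14207, which like l(2)efl lies outside the 67B cluster, averaged 127 ± 27.2 FPKM in old and 79.0 ± 13.6 FPKM in young flies, with a log2 fold change of 0.67 ± 0.10 (SE, adjusted p = 4.92e-06 by limma). CG7409 averaged 17.8 ± 6.22 FPKM in old and 80.2 ± 13.6 FPKM in young flies, a log2 fold change of -2.15 ± 0.13 (SE, adjusted p = 4.12e-13 by limma). CG4461, which sits between Hsp22 and Hsp26 in the cluster, averaged 6.18 ± 1.89 FPKM in old and 27.1 ± 6.79 FPKM in young flies, a log2 fold change of -1.97 ± 0.13 (SE, adjusted p = 5.07e-12 by limma). These were the rank 12 and 17 lowest of 9809. CG13133 was below the filter, at 0.588 ± 0.292 FPKM in old and 0.519 ± 0.425 FPKM in young flies. All 3 genes tested kept their direction and their call after scaling.

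Some neighbours in the cluster thus moved in opposite directions, but not all. From Hsp67Bc through Hsp22, CG4461 and Hsp26 to Hsp67Ba, the log2 fold changes along the arm were -0.80, 3.98, -1.97, 1.49 and -0.51, and all 5 passed the test. The next 2 members, Hsp23 (0.44, not called) and Hsp27 (0.34 in the fit with no filter), were both higher in old flies. Hsp67Bb, whose span holds Hsp22, was also higher (0.310 FPKM in old and 0.0284 FPKM in young flies). Hsp67Bc (minus strand) and Hsp22 (plus) lie 434 bp apart, start to start, and CG4461 (plus) and Hsp26 (minus) lie 125 bp apart, end to end.

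**Figure D2:**
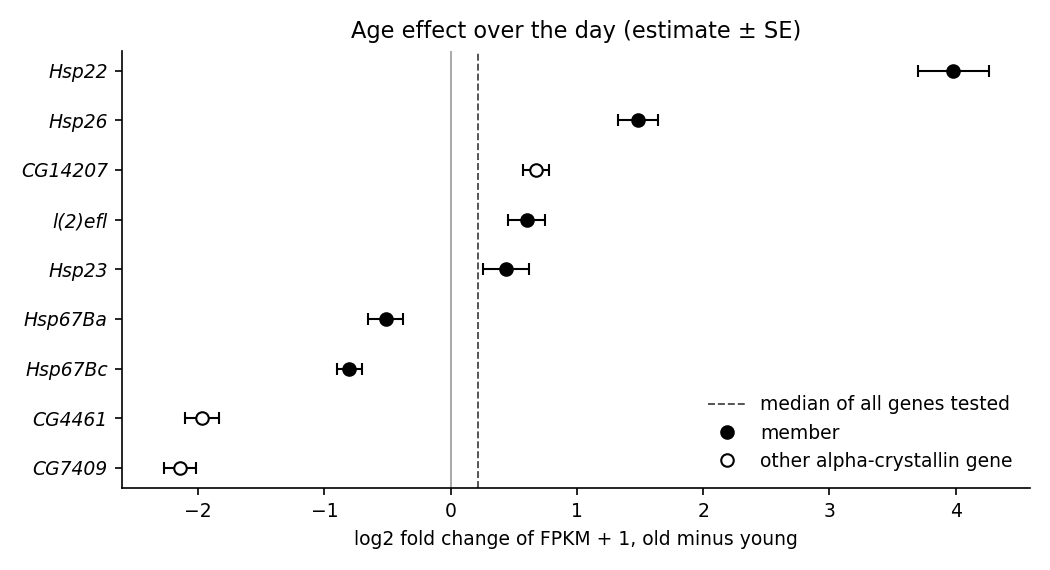
Log2 fold change of FPKM + 1, old minus young, over all 24 libraries for the 6 members tested (filled points) and the 3 other alpha-crystallin genes tested (open points), with SE bars. The dashed line is the median of all genes tested, 0.22, and the genes spread from -2.15 (CG7409) to 3.98 (Hsp22).

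Summed over the 7 members, the level was 412 ± 145 FPKM in old and 125 ± 18.7 FPKM in young flies (SD, n = 12 each). Hsp22 made up 53.5 ± 16.6% of that sum in old flies, against 10.1 ± 4.05% in young flies. l(2)efl made up 41.7 ± 15.6% in old flies, against 78.8 ± 6.33% in young flies. Among the 7 members, l(2)efl had the highest mean share at all 6 times in young flies. In old flies it was Hsp22 at ZT8, ZT12 and ZT16, with a mean share of 58.9%, 75.1% and 67.9%, and l(2)efl at ZT0, ZT4 and ZT20, with 52.2%, 57.4% and 53.5%. The lead at ZT20 did not stand in both old libraries, since the first had 153 FPKM of each gene. With the 4 other alpha-crystallin genes added, the sums were 564 ± 143 FPKM in old and 312 ± 27.8 FPKM in young flies, and CG7409 made up 3.55 ± 2.09% in old and 25.6 ± 2.61% in young flies. Among these 11 genes CG14207 led at ZT0 in old flies, with 34.1% beside 29.4% for l(2)efl. By mean share CG7409 led at ZT20 in young flies, with 29.4% beside 26.2% for CG14207 and slightly less for l(2)efl. CG7409 led in neither young ZT20 library, however. The first had 94.7 FPKM of CG7409 beside 109 FPKM of CG14207, and the second 110 FPKM of CG7409 beside 116 FPKM of l(2)efl.

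**Figure D3:**
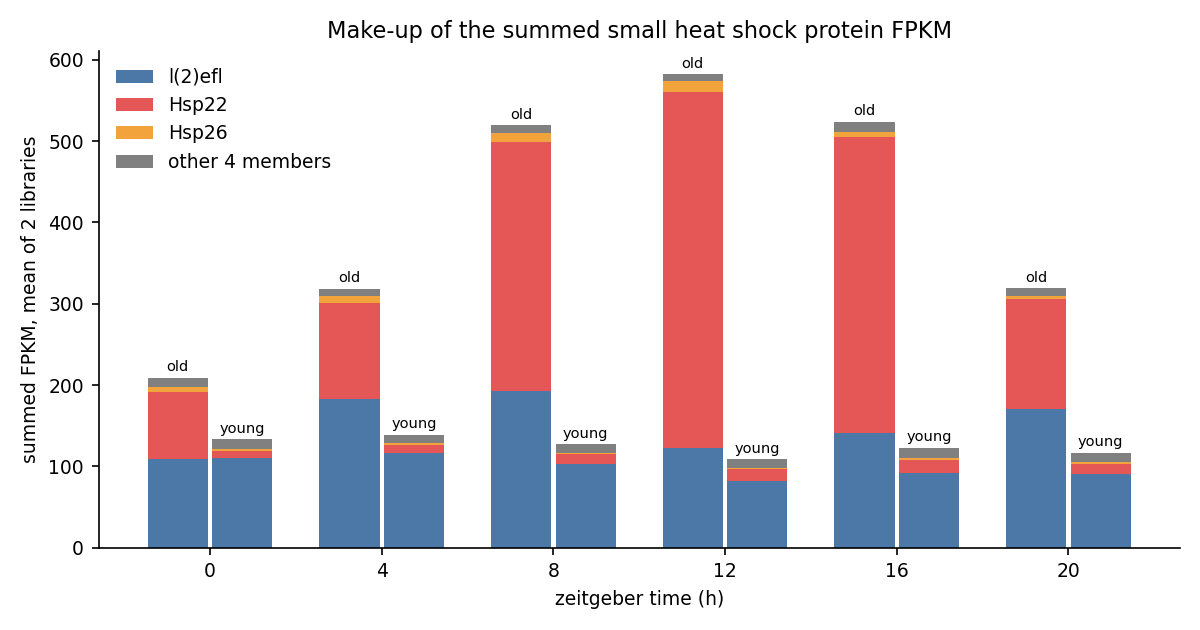
FPKM summed over the 7 members at each zeitgeber time in hours, as means of 2 libraries, with old flies to the left of young flies and each bar divided into l(2)efl, Hsp22, Hsp26 and the other 4 members. The old bars reach 582 FPKM at ZT12 and are lowest at ZT0 (209 FPKM), while the young bars stay between 109 and 139 FPKM.

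The next comparison asks at which times of day the ages differ. One limma model with a mean for each of the 12 groups of age and time was fitted to the 9613 genes whose median reached 1 FPKM in old or in young flies, and contrasts with an adjusted p of at most 0.05 were called. At ZT0, ZT4, ZT8, ZT12, ZT16 and ZT20, 31.5%, 29.8%, 29.4%, 31.1%, 25.3% and 23.8% of these genes were called higher and 7.95%, 8.58%, 6.34%, 9.01%, 6.16% and 7.04% lower in old flies. Hsp22 and Hsp26 were higher in old flies at all 6 times, as were 11.6% of the genes tested. Hsp67Bc was lower at 4 times, which 5.77% of the genes matched or exceeded. l(2)efl was called higher at ZT8 and ZT20, Hsp67Ba lower at ZT0, and Hsp23 at no time.

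The gap in Hsp22 was widest around lights off. In old flies the 2 libraries had 81.7 and 83.4 FPKM at ZT0, 120 and 115 FPKM at ZT4, 317 and 295 FPKM at ZT8, 431 and 443 FPKM at ZT12, 252 and 476 FPKM at ZT16, and 153 and 117 FPKM at ZT20. In young flies they had 8.28 and 8.38 FPKM at ZT0, 10.9 and 8.40 FPKM at ZT4, 10.8 and 13.3 FPKM at ZT8, 16.3 and 12.3 FPKM at ZT12, 14.4 and 17.3 FPKM at ZT16, and 14.2 and 8.94 FPKM at ZT20. The 2 libraries of a time were close in old flies except at ZT16, where the second had 1.89 times the level of the first. The log2 fold change was 3.16 at ZT0, 3.49 at ZT4, 4.56 at ZT8, 4.85 at ZT12, 4.37 at ZT16 and 3.45 at ZT20, each ± 0.25 (SE), with adjusted p between 8.55e-09 and 1.14e-06 by limma. In linear terms the mean in old flies was 30.6-fold higher at ZT12 and 9.91-fold higher at ZT0. Without the second ZT16 library of either age, the log2 fold change at ZT16 was 4.04.

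Hsp26 in old flies also had its highest mean at ZT12, at a far lower level. Its lowest mean was at ZT20, whereas that of Hsp22 was at ZT0. In old flies the 2 libraries had 4.84 and 7.44 FPKM at ZT0, 7.05 and 10.5 FPKM at ZT4, 12.3 and 9.43 FPKM at ZT8, 11.9 and 14.3 FPKM at ZT12, 6.37 and 6.52 FPKM at ZT16, and 4.43 and 3.95 FPKM at ZT20. The mean in young flies stayed between 1.93 FPKM at ZT12 and 2.57 FPKM at ZT0. The log2 fold change was 1.00 at ZT0, 1.66 at ZT4, 1.99 at ZT8, 2.26 at ZT12, 1.22 at ZT16 and 0.79 at ZT20, each ± 0.24 (SE). The adjusted p was 6.40e-06 at ZT12 and 0.0195 at ZT20 by limma. The ZT20 call was lost after scaling (adjusted p = 0.0590) and without either old or the second young ZT20 library (0.0579 to 0.119), and the ZT0 call without the second old (0.0546) or the second young ZT0 library (0.0581).

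Hsp67Bc in old flies was lowest at ZT4, at 0.818 and 1.24 FPKM, against 3.01 and 3.64 FPKM in young flies. The log2 fold change there was -1.10 ± 0.20 (SE, adjusted p = 0.000709 by limma), and it was -0.99 at ZT8, -0.85 at ZT12 and -1.01 at ZT20. At ZT0 and ZT16, where the level in old flies was highest (2.12 and 1.95 FPKM as means of 2), the fold change was -0.49 and -0.37 and did not pass. The difference between these times was not tested for Hsp67Bc beyond the rhythm test.

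l(2)efl had log2 fold changes of -0.03 at ZT0 and 0.90 at ZT8 (adjusted p = 0.0449 by limma) and 0.94 at ZT20 (0.0428). Both calls were lost with the replicate block and after scaling (adjusted p from 0.0513 to 0.154 by limma). They also missed with no filter on low values (0.0763 at ZT8 and 0.0730 at ZT20). When single libraries were left out, the ZT8 call was lost in 14 of 24 fits, with a log2 fold change of 0.84 to 0.96. The ZT20 call was lost in 15 of 24, with 0.55 to 1.32. Its ZT16 libraries had 193 and 88.5 FPKM in old and 116 and 67.7 FPKM in young flies, the second lower at both ages. Without the second ones, l(2)efl also passed at ZT4 (adjusted p = 0.0332) and ZT12 (0.0476). Hsp67Ba had a log2 fold change of -0.94 at ZT0 (adjusted p = 0.0391 by limma), with 2.10 and 2.05 FPKM in old and 4.11 and 5.76 FPKM in young flies, and the call was lost when any of these 4 libraries was left out (adjusted p from 0.0617 to 0.203).

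**Figure D4:**
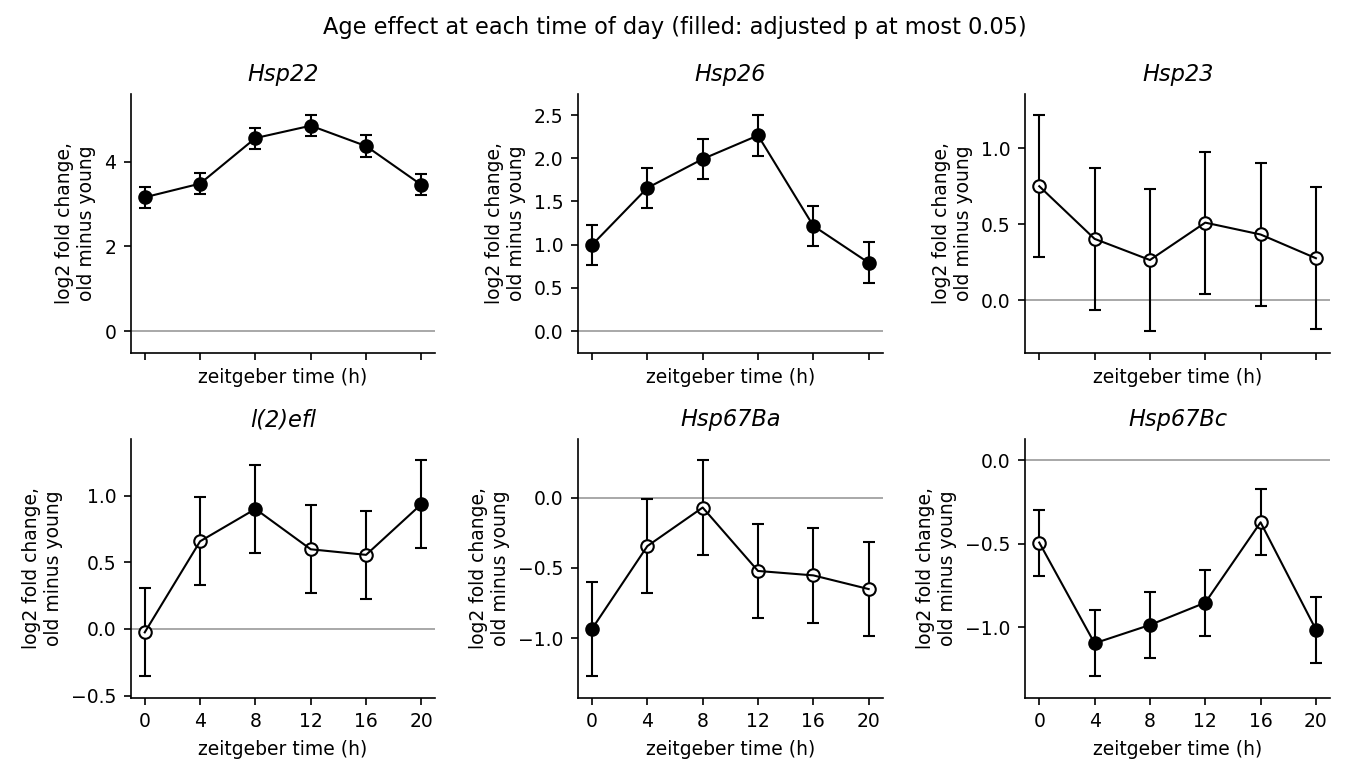
Log2 fold change of FPKM + 1, old minus young, at each zeitgeber time in hours for the 6 members tested, with SE bars and a scale for each gene. Filled points have an adjusted p of at most 0.05, and Hsp22 and Hsp26 have 6 filled points each with the largest value at ZT12, 4.85 and 2.26.

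The study set out to find rhythms that change with age. By its criterion (24 h rhythm with an unadjusted p of at most 0.05 in an ARSER-type fit, a median that reached 1 FPKM at that age, and a highest value 1.5 times the lowest or more), Hsp22 and Hsp26 were rhythmic in old flies and Hsp22 was rhythmic in young flies. Of the 9613 genes, 19.6% met the criterion in old and 21.2% in young flies. Hsp22 had p = 0.000387 in old and p = 0.0161 in young flies by the F test of that harmonic fit (n = 12 at each age), and Hsp26 had p = 0.00151 in old and p = 0.630 in young flies. After Benjamini-Hochberg adjustment, Hsp22 had 0.0187 in old and 0.0886 in young flies, and Hsp26 had 0.0337 in old and 0.727 in young flies, and with adjusted values 5.01% of the genes met the criterion in old and 7.61% in young flies. Hsp22 in young flies also missed the threshold without the first ZT12 or the second ZT4 library, with p up to 0.0848 in this F test. Hsp27 had p = 0.00718 in old flies (n = 12), but its median was below 1 FPKM. It had 10 and 9 fragments at ZT0, 11 and 11 at ZT4 and 5 and 6 at ZT12 in old flies. Hsp23, l(2)efl, Hsp67Ba and Hsp67Bc had p between 0.214 and 0.556 in these fits at both ages. Of the other alpha-crystallin genes, CG14207 met the criterion in old flies (p = 0.0385, n = 12) and CG7409 in young flies (p = 0.00787, n = 12).

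The mean daily range of Hsp22 was 5.29-fold in old flies, with its high at ZT12 (437 FPKM) and its low at ZT0 (82.5 FPKM), against 1.90-fold in young flies, with its high at ZT16 (15.8 FPKM) and its low at ZT0 (8.33 FPKM). For Hsp26 it was 3.13-fold in old flies, between ZT12 (13.1 FPKM) and ZT20 (4.19 FPKM), against 1.33-fold in young flies. On the log2 scale the 24 h amplitude, which is the height of the fitted curve above its mean, was 1.26 in old and 0.39 in young flies for Hsp22. It was 0.65 in old and 0.084 in young flies for Hsp26. The fitted peak in old flies was at ZT12.3 for Hsp22 and at ZT9.09 for Hsp26.

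A further limma model asked whether the rhythm itself differed between the ages, through the interaction of its 24 h cosine and sine terms with age. Only 0.166% of 9613 genes had a larger amplitude in old flies with an adjusted p of at most 0.05, and Hsp22 and Hsp26 were 2 of these 16 genes. Hsp22 had an adjusted p of 0.00367 (rank 9 of 9613) and Hsp26 one of 0.0384 (rank 30) by limma. The other 4 members tested had amplitudes of 0.19 to 0.29 in old and 0.10 to 0.30 in young flies and adjusted p of at least 0.957 by limma. The median amplitude over all genes tested was 0.15 in old and 0.15 in young flies.

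The 2 results differed in how firmly they held. Hsp22 kept its call by limma without any single library (adjusted p from 0.00132 to 0.0140) and without both second ZT16 libraries (0.00306). In the first libraries alone its amplitude was 1.15 in old and 0.37 in young flies, and in the second ones it was 1.37 in old and 0.43 in young flies. Hsp22 did not pass when time of day was a factor with no assumed curve (adjusted p = 0.118 by limma) or when only the first or only the second libraries were used (up to 1.00), where no gene passed with a larger amplitude. Hsp26 lost its call in 21 of 26 fits that left out libraries, with the replicate block (0.0515), with a pseudocount of 0.1 (0.0837), with no filter on low values (0.0750), without both second ZT16 libraries (0.0573) and with time as a factor (0.223). Its amplitude was 0.71 in old and 0.27 in young flies in the first libraries, and 0.61 in old and 0.16 in young flies in the second. In young flies its fitted peak was at ZT1.11 in the first and ZT15.4 in the second libraries. The amplitude of 0.084 over both sets was therefore below that of either.

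**Figure D5:**
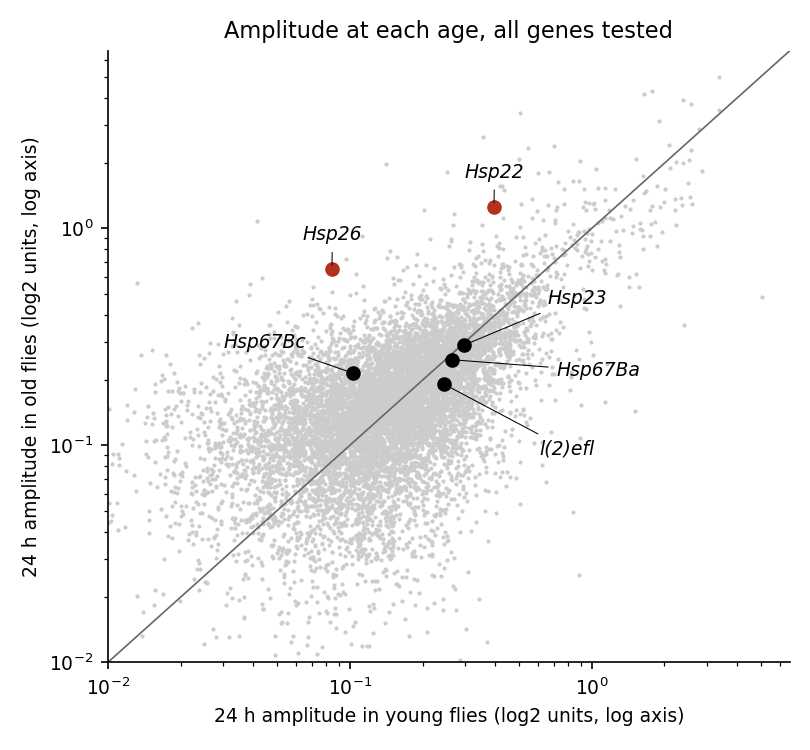
Amplitude of the fitted 24 h curve in old flies (vertical) against young flies (horizontal) in log2 units on log axes for 9613 genes (grey, with genes under 0.01 at either age outside the axes), with the 6 members tested marked. Red points are Hsp22 (1.26 in old and 0.39 in young flies) and Hsp26 (0.65 in old and 0.084 in young flies), which have an adjusted p of at most 0.05 and lie above the line of equal amplitude, and the 4 others in black have adjusted p of at least 0.957.

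The study ranked genes by a differential rhythmicity score that adds a change in periodicity and a change in daily range, both as Z-scores, with positive values for stronger rhythms in old flies. The score was recomputed here from the p-values of the harmonic fit, so values and ranks can differ from those of the study. Hsp22 scored 6.72, the rank 2 of 9612 genes, and Hsp26 scored 4.67, the rank 5, given here as a description. When the daily range was taken as a ratio in place of a difference in FPKM, they ranked 14 and 16 of 9350. Hsp23, l(2)efl, Hsp67Ba and Hsp67Bc scored between -0.78 and 0.24.

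Other genes of the heat shock response were mostly higher in old flies too. Of 14 genes listed as Hsf and its other targets, 10 passed the filter, and these were called higher (9 after scaling), beside 43.5% of all genes tested (20.5% after scaling). The gene that lost its call was Hsf itself, with a log2 fold change of 0.21 before and -0.0045 after scaling (adjusted p = 0.963 by limma). Hsp70Bb and Hsp70Bc passed the filter only through their level in old flies, so the filter favoured their calls. The median log2 fold change was 0.75 beside 0.22 over all genes tested. CG7130, a DnaJ-like co-chaperone, was 5.85-fold higher in old flies, and Hsp68 had 6.74 FPKM in old and 2.02 FPKM in young flies. Hsp70Bb had 4.26 FPKM in old and 0.464 FPKM in young flies, but the Hsp70 copies are nearly identical and their shares of the fragments are uncertain. By the study's criterion CG7130 (p = 0.000447, n = 12), Hsp70Bb (p = 0.00349, n = 12) and Hsp70Bc (p = 0.0101, n = 12) were rhythmic in old flies by the harmonic fit. No gene of the list was in young flies, beside 19.6% of all genes in old and 21.2% in young flies. None of the 10 passed the limma test of a change of rhythm. Of 9 genes listed as mitochondrial chaperones and proteases, the compartment of Hsp22, 8 were tested, 7 were called higher and none lower, with a median log2 fold change of 0.41, and 4 were called higher after scaling, beside the same 43.5% and 20.5% of all genes. By the study's criterion 1 was rhythmic in old and 6 in young flies, beside the same 19.6% and 21.2% of all genes, and none passed the test of a change of rhythm. They moved far less than Hsp22, and Hsc70-5, the mitochondrial Hsp70, had 78.2 FPKM in old and 54.3 FPKM in young flies, Hsp60A, the mitochondrial chaperonin, 61.2 FPKM in old and 42.9 FPKM in young flies, and Lon, a matrix protease, 47.5 FPKM in old and 33.6 FPKM in young flies.

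Genes of pathways that act on small heat shock protein genes, or with their proteins, were divided. Of 8 genes listed as JNK and Foxo signalling, which can switch on small heat shock protein genes in flies, 6 were called higher and none lower, or 3 higher and 1 lower after scaling, beside the same shares of all genes as above. They included puc, the JNK phosphatase that reports the pathway's activity, with 60.2 FPKM in old and 37.9 FPKM in young flies, and kay, the fly Fos, with 51.8 FPKM in old and 31.6 FPKM in young flies. After scaling kay kept its call, but puc did not (log2 fold change 0.50, adjusted p = 0.0127 by limma). Of 8 genes listed as chaperone-assisted autophagy, the pathway of Hsp67Bc, 4 were called higher and none lower, or 3 higher and 1 lower after scaling, beside 43.5% higher and 10.8% lower of all genes, or 20.5% and 20.8% after scaling. Starvin (stv), the partner of Hsp67Bc, had 61.9 FPKM in old and 36.6 FPKM in young flies, and ref(2)P, the fly p62, had 173 FPKM in old and 105 FPKM in young flies. Of 10 genes of the ecdysone response, 3 were called higher and 3 lower, or none higher and 7 lower after scaling, beside the same shares of all genes.

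Markers of the cell types of the head also differed with age, as levels summed over each list. The ranges over libraries were 649 to 1014 FPKM in old and 887 to 1378 FPKM in young flies for neurons (4 of 5 genes called lower), 13850 to 20578 FPKM in old and 15808 to 19319 FPKM in young flies for photoreceptors (none of 7 called), 1347 to 2134 FPKM in old and 1454 to 2109 FPKM in young flies for glia (2 of 5 higher, 1 lower), 8077 to 13055 FPKM in old and 12281 to 29775 FPKM in young flies for fat body (1 of 6 higher, 3 lower), and 2098 to 2589 FPKM in old and 1704 to 2252 FPKM in young flies for muscle (2 of 8 higher, 2 lower). After scaling, 5 neuron and 4 photoreceptor markers were called lower, as were 2 of glia, 3 of fat body and 2 of muscle, with 1 of glia and 1 of muscle higher. The shares over all genes tested were 43.5% higher and 10.8% lower, or 20.5% higher and 20.8% lower after scaling. Some of these counts lie near those shares. The summed medians were 10595 FPKM in old and 18124 FPKM in young flies for fat body, and 773 FPKM in old and 1163 FPKM in young flies for neurons. Single markers moved as much as some members, such as Syt1, a synaptic vesicle protein gene, with a log2 fold change of -0.86, and the yolk protein genes Yp2 and Yp3, with -1.44 and -1.47. Defining markers of each of these tissues were present at both ages. The 5 ovary markers were all below the filter. The part of these shifts in the results on the small heat shock proteins was not tested.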

How the data were processed

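Poly(A)-selected, strand-specific libraries of female heads were sequenced by the authors, who used skewer for trimming, TopHat for alignment to BDGP6 (dm6) and Cuffdiff for FPKM per gene. The deposited FPKM tables, 1 per age, also hold ARSER p-values, q-values and phases, which were not used. Samples were grouped by age and time from the labels. Columns are named by hour, and the first and second daily cycle were taken as the first and second library of a time, which the labels do not state. Nothing in the labels says that the libraries of a time share flies, and p-values measure the spread between libraries.

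All 7 members were found in both tables. From 17637 genes, 235 hairpins were left out. FPKM was tested as log2(FPKM + 1) with limma 3.58.1 (R 4.3.3, eBayes with trend), which understates changes of low genes, and rhythms with a harmonic regression on detrended FPKM (Python 3.11.15, scipy 1.17.1). Adjustment was by Benjamini-Hochberg over all genes tested. The limma fits and the harmonic regression were tested on simulated data. Scaling used the median ratio over 9159 genes. Relative depth came from the steps of 5405 low genes, and fragments were read as whole multiples of 1 unit per gene. Such fragment numbers carry counting error, and total depth is not given in the sources used here. Fragments were not recovered for Hsp22, l(2)efl and Hsp67Ba. Gene positions came from the Ensembl annotation of BDGP6.

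Genes named are the 7 members, their neighbours, up to 3 genes called with the largest age effect of each list, and, for each member called, the 3 genes with the closest profile. Hsc70-5, Hsp60A, Lon, puc, kay, stv and ref(2)P fall under the list rule, and Hsp70Bb too. CG13133, Hsf, Hsp70Bc and Lsp2 fall outside it and were named after their values were seen. The members and lists were chosen with earlier results of these data known. Alternatives were another pseudocount, filters, scaling, a replicate block, time as a factor, untransformed FPKM and leaving out libraries. Those added after seeing the data were the time factor on scaled values and leaving out both second ZT16 libraries.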

Additional observations from a re-analysis of the deposited data

Results flagged for a closer look

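The 24 h rhythm of Hsp22 differed between the ages by the limma interaction test (adjusted p = 0.00367), with an amplitude of 1.26 in old and 0.39 in young flies on the log2 scale. The larger amplitude stood in both the first libraries (1.15 in old and 0.37 in young flies) and the second ones (1.37 in old and 0.43 in young flies). The call was lost in either set of libraries alone, and with time of day as a factor (adjusted p = 0.118 by limma).

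The rhythm of Hsp26 also differed by the same limma test (adjusted p = 0.0384), with an amplitude of 0.65 in old and 0.084 in young flies on the log2 scale, a result that most fits with libraries left out did not keep. In young flies the first and second libraries alone had amplitudes of 0.27 and 0.16, with fitted peaks at unlike times.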

How the results depend on the processing

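Hsp22, Hsp26 and Hsp67Bc kept their age call over the day under every alternative run, except that Hsp67Bc fell out of the test at a minimum of 5 FPKM. After scaling, 2015 genes were called higher and 2045 lower in old flies (2396 and 2371 with time of day as a factor as well), against 4264 and 1064 on the deposited values. With a minimum of 5 FPKM 0 members were tested lower over the day or at ZT0, ZT4, ZT8, ZT12 and ZT20, since the 2 lower members are below it. With no filter 0 members were lower at ZT0, and after scaling 2 were. After scaling 1 member was higher at ZT20. Leaving out libraries gave 2220 to 4271 genes higher and 496 to 1104 lower over the day, with 2 to 4 members higher and 1 to 2 lower (l(2)efl and Hsp67Ba lost their calls in the first or second libraries alone), 1 to 2 members higher at ZT0 and 1 to 3 at ZT20, and 0 to 1 lower at ZT0 and ZT16.

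For the change of rhythm, 1 member was called with a pseudocount of 0.1, with no filter, with the replicate block and without both second ZT16 libraries (where 10 genes had a smaller amplitude in old flies), and 0 with time of day as a factor. Leaving out libraries gave 0 to 2 members, and 0 to 16 genes with a larger and 0 to 17 with a smaller amplitude. The amplitude difference of members that were not called changed sign in Hsp23 (0.15 on untransformed FPKM, 0.061 without both second ZT16 libraries, -0.16 to 0.19 leaving out libraries), l(2)efl (0.00033 scaled, 3.06 untransformed, -0.16 to 0.055) and Hsp67Ba (0.016 with a pseudocount of 0.1, 0.022 scaled, -0.11 to 0.12). Adjusted p-values left 482 genes rhythmic in old and 732 in young flies, with 0 members in young flies, and limma called 1278 in young flies. Leaving out a young library gave 0 to 2 rhythmic members.

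Fold changes at single times that changed sign when a library was left out were those of members not called there. They ranged from -0.16 to 0.11 at ZT0 and -0.0038 to 1.12 at ZT16 for l(2)efl, from -0.049 to 0.58 at ZT8, -0.052 to 1.07 at ZT12, -0.37 to 1.23 at ZT16 and -0.030 to 0.58 at ZT20 for Hsp23, and from -0.33 to 0.19 at ZT8 for Hsp67Ba.

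Same-numbered libraries of the ages did not deviate together at every time (correlations of deviations from -0.063 to 0.406 over 9613 genes, the highest at ZT16 and 0.185 at ZT20), so the number was not taken to pair them. The methods place parallel samples of both ages in 1 lane without saying which. The replicate block left 3 members higher and 2 lower over the day, and blocks by time added Hsp23 (adjusted p = 0.00144 by limma). Values below a few fragments, as for Hsp27, are limited by depth.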

Other observations

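The genes whose scaled log2 profiles over the 24 libraries came closest to those of the members, each taken relative to its own mean in young flies, are given as a description. For Hsp22 they were CG15784, with 679 FPKM in old and 68.7 FPKM in young flies, CG12256, with 36.3 FPKM in old and 1.65 FPKM in young flies, and CG13646, with 11.7 FPKM in old and 0.112 FPKM in young flies. The root mean square difference from Hsp22 was 0.74, 0.77 and 0.77, against 2.77 for a flat profile. CG15784 shared the course over the day, with an amplitude of 1.09 in old and 0.63 in young flies, whereas CG12256 (0.16 in old and 0.22 in young flies) and CG13646 (0.054 in old and 0.079 in young flies) shared only the difference with age. For Hsp26 the closest genes were CG10337, CG18869 and Or46a, an odorant receptor gene, with root mean square differences of 0.34 to 0.35 against 1.02 for a flat profile. CG10337 had 14.3 FPKM in old and 4.98 FPKM in young flies. CG18869 (2.12 FPKM in old, 0.163 FPKM in young flies) and Or46a (1.77 and 0.123 FPKM) were far lower. Their means were 13.0-fold and 14.3-fold higher in old flies, beside 3.87-fold for Hsp26, since the pseudocount shrinks changes at such low levels.

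For l(2)efl the closest were CG2004, Tsf2, a transferrin, and SNF4Agamma, a subunit of the energy sensor AMPK, at 0.20 to 0.23 against 0.45 for a flat profile. For Hsp67Bc they were Gad1, the glutamate decarboxylase that makes GABA, with 83.0 FPKM in old and 148 FPKM in young flies, the synaptic vesicle gene Syngr, with 36.5 FPKM in old and 59.7 FPKM in young flies, and CG17977, at 0.19 to 0.20 against 0.71 for a flat profile. For Hsp67Ba they were l(1)G0156, CG31248 and ssx, at 0.19 to 0.21 against 0.58. Only ssx was called lower with age (log2 fold change -0.38). Neither l(1)G0156 (-0.27, adjusted p = 0.0441 by limma) nor CG31248 (-0.24, 0.165) was called.

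The 2 libraries of ZT16 differed in several members at both ages. The first and second library had 4.59 and 11.1 FPKM of Hsp23 in old and 2.50 and 9.65 FPKM in young flies, and 3.50 and 1.20 FPKM of Hsp67Ba in old and 4.98 and 2.58 FPKM in young flies. In the second young library Lsp2, a larval serum protein of the fat body, was at 492 FPKM. It was also high in the second young ZT12 and ZT20 libraries (297 and 345 FPKM), against 15.3 FPKM or less in the other 9 young libraries, and in the second old ZT16 library it was at 11.5 FPKM, against a median of 13.6 FPKM in the other 11 old libraries.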
